A study of Mus musculus with 12 samples.

Results

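The 10 genes described here are 6 imprinted genes, Grb10, Zrsr1, Inpp5f, Zdbf2, Rasgrf1 and Trappc9, and 4 genes next to them, Commd1, Bag3, Adam23 and Ctsh, out of 37991 genes measured in mouse retina. They were chosen by symbol, and they were selected on measured values, namely the difference between maternal and paternal alleles in these same libraries. Their maternal to paternal ratios are therefore given as a description, with no test. The question was whether a gene beside an imprinted gene shares its parental direction.

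Retinas came from male mice at age 8 weeks, and each of the 12 libraries held a pool of 6 to 8 retinas, with 3 libraries per class. F0 C57BL/6J is the reference inbred strain, and F0 Cast/EiJ is a wild-derived inbred strain. F1 B6xCast had a Cast/EiJ mother and a C57BL/6J father, and F1 CastxB6 had a C57BL/6J mother and a Cast/EiJ father. The labels name no transgene, agent or targeted deletion in any group, and a pool does not resolve single animals or cell types.

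In imprinting, the parental allele that is expressed is set by a DNA methylation mark laid down in the egg or the sperm and kept after fertilization. Imprinted genes tend to lie in groups under a shared control region, and some are imprinted only from 1 of their promoters or only in some tissues, such as brain. In a reciprocal cross, an imprinted gene keeps the same favoured parent in both crosses, whereas a cis-acting strain variant keeps the same favoured strain.

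Levels are given in count equivalents, the normalized expression estimates of the authors, which are not corrected for gene length and are compared only within a gene. Each F1 allele was deposited on the scale of a whole F0 library, so that an allele of a gene expressed equally from both copies has about the F0 level. Over the 13414 jointly tested genes, the median ratio of the mean F1 allele to the F0 mean was 0.998. Unique hits are read pairs that matched 1 gene and, in F1, 1 allele, and they totalled 8158534 to 12363291 per library. Intervals on shares of unique hits are 95% Wilson intervals and cover counting error only.

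The rod markers Gnat1 and Nrl had 175000 to 213000 and 17500 to 24000 count equivalents over the F0 libraries and F1 alleles, and all 15 markers listed for cones, for Mueller glia and for bipolar, amacrine or ganglion neurons were found. Summed markers of retinal pigment epithelium reached at most 261 (4 of 4 found), of lens 209 (3 of 3), of blood 621 (3 of 3) and of skeletal muscle 85.7 (3 of 3). Several sums differed between the F0 strains without overlap. Ganglion cell markers summed to 3160 to 3662 in F0 C57BL/6J and 2135 to 2384 in F0 Cast/EiJ, and pigment epithelium markers to 208 to 261 and 62.6 to 93.9, with Rpe65 as low as 0.000463 in single libraries. Sums for cones and bipolar neurons were also lower in F0 Cast/EiJ. Those for rods, skeletal muscle and amacrine neurons were higher there (amacrine 7170 to 7820, against 5100 to 6230 in F0 C57BL/6J). Their part in the strain differences below was not tested, and in these bulk libraries fewer cells of a type and less RNA per cell cannot be told apart.

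Zrsr1, a retrogene that encodes a splicing factor related to U2AF35, lies at chromosome 11, 22873215 to 22876498 on the plus strand (NCBI37). It sits inside Commd1 (22734744 to 22882382, minus strand), whose product acts in copper handling and NF-kB signalling. In the gencode annotation of the same build, 203 of the 3284 exonic bases of Zrsr1 also fall in a Commd1 exon. Commd1 shares 2449 of its 8388 exonic bases with B3gnt2 on the same strand. Reads in the shared bases cannot be told apart, since the libraries were not strand-specific and B3gnt2 lies on the same strand as Commd1. The values of these overlapping genes are uncertain to that extent.

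The start regions of Zrsr1 and Commd1 are shown because the transcripts run through each other there, and those of Grb10 because the gene has more than 1 start. Each sequence holds the 250 bases before a RefSeq start, 5′ to 3′, on GRCm38.p6, and capitals mark CG dinucleotides, the target of DNA methylation. The Commd1 start shown lies 0.861 kb from the Zrsr1 start on the opposite strand, and the Grb10 starts lie 9.449 kb apart. A further Commd1 start, not shown, lies 10.279 kb from the Zrsr1 start.
Zrsr1, chr11:22971755-22972004, plus strand: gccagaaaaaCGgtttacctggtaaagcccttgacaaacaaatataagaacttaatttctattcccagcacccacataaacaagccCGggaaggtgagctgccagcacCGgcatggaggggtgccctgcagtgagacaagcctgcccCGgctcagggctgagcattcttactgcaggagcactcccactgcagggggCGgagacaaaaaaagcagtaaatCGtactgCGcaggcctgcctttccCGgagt
Commd1, chr11:22972867-22973116, minus strand: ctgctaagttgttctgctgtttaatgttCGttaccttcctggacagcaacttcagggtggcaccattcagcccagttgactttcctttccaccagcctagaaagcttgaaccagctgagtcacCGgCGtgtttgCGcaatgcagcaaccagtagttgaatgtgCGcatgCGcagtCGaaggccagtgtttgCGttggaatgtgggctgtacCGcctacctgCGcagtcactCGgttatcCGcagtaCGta
Grb10, chr11:12037421-12037670, minus strand: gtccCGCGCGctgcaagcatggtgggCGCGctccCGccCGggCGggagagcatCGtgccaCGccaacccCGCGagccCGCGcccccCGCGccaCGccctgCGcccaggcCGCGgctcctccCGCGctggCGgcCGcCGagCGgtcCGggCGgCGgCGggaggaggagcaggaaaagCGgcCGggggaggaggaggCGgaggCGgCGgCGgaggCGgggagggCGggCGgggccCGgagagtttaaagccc
Grb10, chr11:12027972-12028221, minus strand: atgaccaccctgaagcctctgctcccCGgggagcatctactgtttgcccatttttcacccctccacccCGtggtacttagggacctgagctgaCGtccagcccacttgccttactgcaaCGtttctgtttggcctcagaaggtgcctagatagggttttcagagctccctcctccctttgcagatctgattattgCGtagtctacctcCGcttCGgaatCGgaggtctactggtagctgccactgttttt

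The Zrsr1 stretch holds 8 CG and the Commd1 stretch 13. The Grb10 starts are unlike each other, with 40 CG in the first stretch and 8 in the second. Over the full windows of 300 bases (250 before and 50 after the start), CG counts of the other members with an entry were 15 for Inpp5f, 21 for Bag3, 31 for Adam23, 26 for Rasgrf1, and 15 and 38 for the starts of Zdbf2, against a median of 7 over 32851 windows. A count of at least 45, that of the first Grb10 window, occurred in 1.93% of windows, and at least 38 in 4.95%. The entries cover 8 of the 10 genes, without Ctsh and Trappc9. The CG count was read from sequence and is not a methylation level.

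Zdbf2 and Rasgrf1 were expressed from the paternal allele almost alone. Zdbf2 encodes a zinc finger protein and lies at chromosome 1, 63319839 to 63361150. Its paternal allele had 435, 553 and 524 count equivalents in F1 B6xCast and 286, 308 and 301 in F1 CastxB6. Its maternal allele had 14.8, 0.281 and 0.314 in F1 B6xCast and 0.334, 0.233 and 0.168 in F1 CastxB6. Every paternal value lay far above every maternal value, and 1 maternal value, that of F1 B6xCast replicate 1, stood apart from the other 5. That library held the 1 maternal unique hit among 506 hits at this gene, a share of 0.198% (0.0349% to 1.11%). In the 3 F1 CastxB6 libraries, 0 of 193 hits were maternal (Wilson upper bound 1.95%).

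Rasgrf1, a guanine nucleotide exchange factor for Ras, lies at chromosome 9, 89804613 to 89921814. Paternal count equivalents were 3210, 3450 and 3430 in F1 B6xCast and 3540, 3570 and 3380 in F1 CastxB6, against maternal values of 22.0, 15.8 and 47.3 and of 31.4, 27.3 and 42.3. Of 6603 unique hits, 16 were maternal, or 0.242% (0.149% to 0.393%), and maternal hits occurred in all 6 libraries. The mean paternal allele was 1.94 times the F0 mean for Zdbf2 and 1.96 times for Rasgrf1, where an allele of an evenly expressed gene has about the F0 level.

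Zrsr1 had the same paternal direction with a small maternal remainder. The paternal allele had 1530, 1650 and 1470 count equivalents in F1 B6xCast and 1370, 1450 and 1390 in F1 CastxB6. The maternal allele had 56.3, 63.6 and 53.3 and then 93.1, 49.8 and 113. The maternal share of unique hits was 4.93% (3.68% to 6.58%, 43 of 872), so unlike at Zdbf2 and Rasgrf1 maternal hits were counted several times in every library, 4 to 11 of them. The log2 ratio of maternal to paternal count equivalents was -4.41 ± 0.53 (SD, n = 6).

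Inpp5f, a phosphoinositide phosphatase at chromosome 7, 135754842 to 135839939, was biased to the paternal allele but only in part. Paternal count equivalents were 1200, 1340 and 1190 in F1 B6xCast and 1340, 1280 and 1290 in F1 CastxB6. Maternal ones were 499, 536 and 617 and then 592, 479 and 452, so the alleles did not overlap. The maternal share of unique hits was 30.7% (29.1% to 32.4%, 915 of 2980) and ranged from 28.6% to 34.3% over the libraries. The annotation lists 9 transcripts of Inpp5f, one of which in brain is known to be imprinted from an internal start, and the gene-level values do not separate them.

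Grb10 and Trappc9 were biased to the maternal allele. Grb10, an adaptor that binds the insulin receptor and restrains its signalling, lies at chromosome 11, 11830511 to 11938686. It had maternal count equivalents of 2290, 2300 and 2000 in F1 B6xCast and 2070, 2070 and 2040 in F1 CastxB6, against paternal ones of 1280, 1090 and 1370 and of 1150, 1320 and 1150. The alleles did not overlap, and the maternal share of unique hits was 66.9% (65.2% to 68.6%, 1904 of 2845). Grb10 is known as maternally expressed in many tissues and paternally expressed in neurons, from different starts, and its 12 annotated transcripts were not separated here.

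Trappc9, a subunit of a complex that tethers vesicles at the Golgi, spans 471.584 kb of chromosome 15 (72420051 to 72891634). Maternal count equivalents were 1630, 1610 and 1840 in F1 B6xCast and 2040, 1960 and 2190 in F1 CastxB6. Paternal ones were 1330, 1290 and 1390 and then 1250, 1320 and 1380, all lower. With 15250 unique hits it was the most deeply counted of the 10 genes, and its maternal share was 58.6% (57.8% to 59.4%), a smaller bias than at Grb10.

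**Figure D1:**
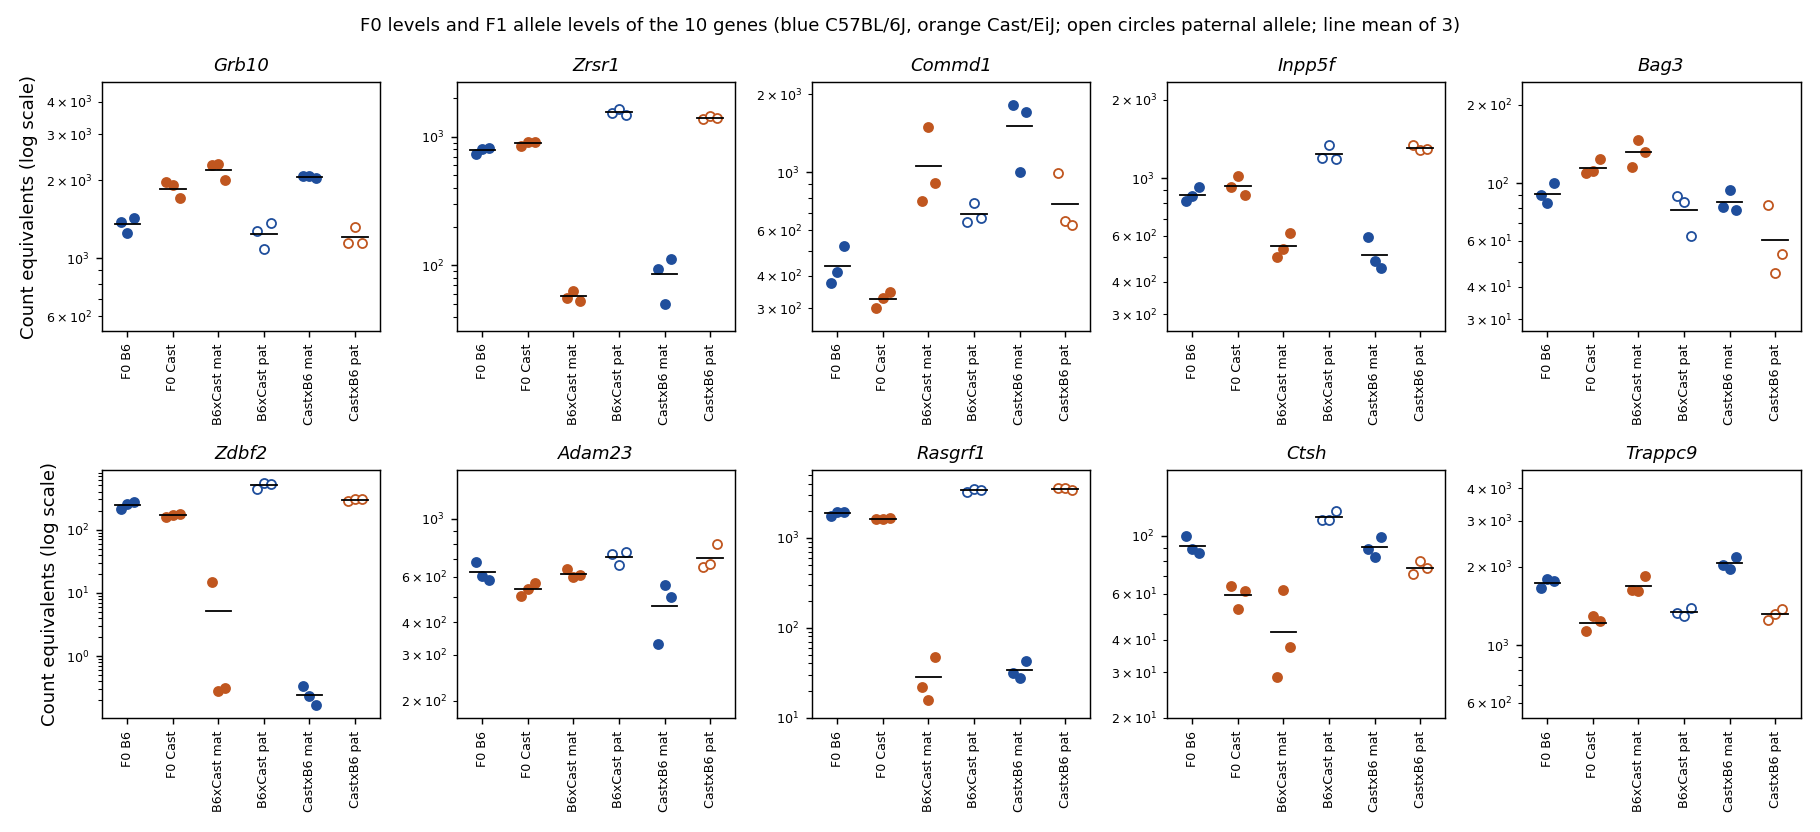
Count equivalents (log axis) of each gene in F0 libraries and on each F1 allele, with blue for C57BL/6J, orange for Cast/EiJ, open circles for paternal alleles and a line at the mean of 3 libraries. Mean paternal alleles of Zdbf2 and Rasgrf1 sit at 1.94 and 1.96 times the F0 mean and the maternal alleles at 0.013 and 0.018 times. The mean parental alleles of the 4 adjacent genes over both crosses lie at 0.677 times their F0 mean (paternal Bag3) or higher. The widest gap among these 4 is at Ctsh in F1 B6xCast (means of 42.6 and 118).

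The 4 adjacent genes did not take a common direction. In count equivalents, Adam23 leaned to the same parent as its imprinted neighbour, Bag3 and Commd1 leaned to the other parent, and the bias of Ctsh changed with the cross. As background, of the 13414 jointly tested genes, 0.492% were called for a parental difference by limma, 0.678% had the higher maternal allele in all 6 libraries and 0.768% the higher paternal allele. Since these ratios chose the genes, nothing is read from their excess.

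Adam23, a neuronal membrane protein of the disintegrin family that lacks protease activity, starts 131.314 kb beyond the end of Zdbf2. Its paternal allele was higher in all 6 libraries, as at Zdbf2. Paternal count equivalents were 735, 663 and 748 in F1 B6xCast and 655, 671 and 802 in F1 CastxB6, against maternal ones of 642, 598 and 608 and of 330, 556 and 499. The paternal and maternal ranges, 655 to 802 and 330 to 642, did not overlap. The maternal share of unique hits was 43.1% (41.7% to 44.6%, 1954 of 4533), far from the 0.198% at Zdbf2.

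Bag3, a co-chaperone of HSP70 in selective autophagy, ends 64.35 kb before Inpp5f. It was expressed at a low level, and its maternal allele was the higher in 5 of 6 libraries. Maternal count equivalents were 115, 147 and 132 in F1 B6xCast and 81.3, 94.1 and 78.7 in F1 CastxB6, against paternal ones of 89.3, 85.0 and 62.6 and of 82.6, 45.0 and 53.5. In the exception, F1 CastxB6 replicate 1, the alleles had 81.3 and 82.6 count equivalents and 23 unique hits each. The pooled maternal share was 60.7% (55.0% to 66.1%, 179 of 295 hits), opposite to Inpp5f, but the ranges of the parental alleles overlapped. Of the 6 single libraries, 3 had an interval that included 50%.

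Commd1 gave different directions by the measure used. In count equivalents the maternal allele was higher in all 6 libraries, with 774, 1490 and 908 in F1 B6xCast and 1810, 1000 and 1710 in F1 CastxB6, against paternal values of 645, 765 and 670 and of 996, 652 and 628. In unique hits, maternal to paternal were 16 to 33, 37 to 43 and 21 to 35 in F1 B6xCast, and 50 to 32, 29 to 25 and 41 to 27 in F1 CastxB6. By that count the C57BL/6J allele was higher in all 6 libraries whichever parent gave it, and the pooled maternal share was 49.9% (44.9% to 54.8%, 194 of 389). The maternal to paternal log2 ratio was 0.76 in count equivalents and -0.084 in unique hits.

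The level of Commd1 also differed between F0 and F1 estimates. F0 libraries had 302 to 522 count equivalents, whereas F1 alleles had 628 to 1810, a ratio of the means of 2.63 that only 0.134% of the jointly tested genes exceeded. There were 78.7 unique hits per 100 count equivalents in F0 and 3.23 in F1, against medians over all tested genes of 77.7 and 49.7. Few allele-specific reads thus lay behind the F1 count equivalents of Commd1. The part of the bases shared with B3gnt2 and Zrsr1 in this was not tested. B3gnt2 itself had 142 ± 43.6 maternal and 100.2 ± 33.5 paternal count equivalents (SD, n = 6) and was not called (log2 ratio 0.52 ± 0.23 (SE), limma adjusted p = 0.693).

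Ctsh, a lysosomal cysteine protease, starts 27.175 kb beyond Rasgrf1. In F1 B6xCast its paternal C57BL/6J allele had 115, 115 and 125 count equivalents and its maternal Cast/EiJ allele 28.7, 61.9 and 37.3. In F1 CastxB6 the maternal C57BL/6J allele had 88.8, 83.0 and 99.2 and the paternal Cast/EiJ allele 71.7, 79.9 and 75.3. The C57BL/6J allele was thus higher in all 6 libraries, and the maternal share of unique hits was 28.7% (23.9% to 34.1%, 87 of 303) in one cross and 57.9% (52.5% to 63.2%, 186 of 321) in the other. The maternal to paternal log2 ratio was -1.52 ± 0.57 in F1 B6xCast and 0.25 ± 0.18 in F1 CastxB6 (SD, n = 3 each), so the average over the crosses, -0.64, describes neither.

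**Figure D2:**
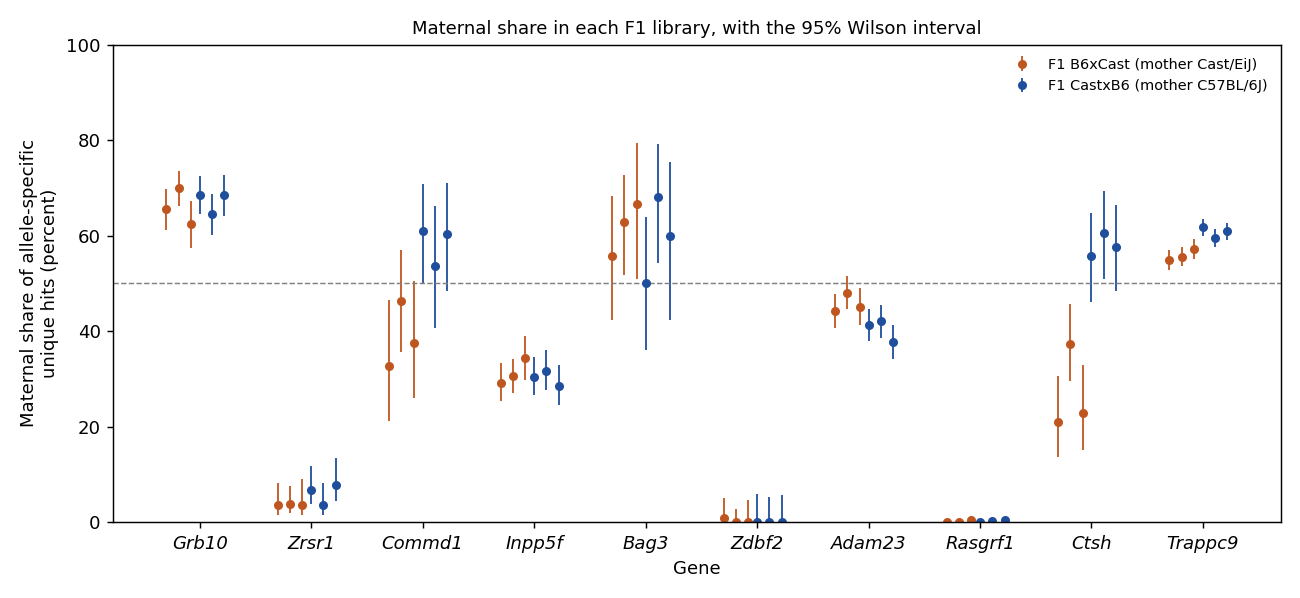
Maternal share of allele-specific unique hits (percent) of each gene in each F1 library, orange for F1 B6xCast and blue for F1 CastxB6, with the 95% Wilson interval and a dashed line at 50%. Shares of Grb10, Inpp5f and Trappc9 keep to the same side of 50% in both crosses, whereas those of Commd1 and Ctsh change side with the cross.

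Within 500 kb of the members, 36 other genes passed the filters, and limma called a parental difference for 2 of them, or 5.56%, beside the 0.492% over all genes. The absolute log2 ratio was under 0.25 for 28 of the 36 and for 89.6% of all tested genes. The median log2 ratio of the 36 was 0.050.

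One of the called genes was Eif2c2 (Argonaute 2, the small RNA-guided slicer), which ends 37.388 kb from the start of Trappc9 on the same strand. Its entry at 72929022 to 73015270 had maternal count equivalents of 2712 ± 170.0 and paternal ones of 2100 ± 215 (SD, n = 6), a 1.29-fold difference (log2 0.37 ± 0.05 (SE), limma adjusted p = 4.9e-04), with the maternal allele higher in 6 of 6 libraries, as at Trappc9. Chrac1, a histone-fold protein of chromatin remodelling complexes that lies between them, had a log2 ratio of 0.054 ± 0.11 (SE) and was not called, nor was a short further entry under the symbol Eif2c2 (log2 0.19 ± 0.13). The other called gene was Ankrd34c, 171.3 kb before Rasgrf1, with a log2 ratio of -0.61 ± 0.13 (SE, limma adjusted p = 0.048). It had 43.4 ± 14.95 maternal and 66.98 ± 22.6 paternal count equivalents (SD, n = 6), and its maternal allele was higher in 2 of 6 libraries. Its strain difference between the alleles was larger than its parental one (Cast/EiJ minus C57BL/6J log2 -0.81, limma adjusted p = 6.8e-05), so its parental ratio differed between the crosses.

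Apart from Ankrd34c, the nearest tested genes on either side of the imprinted genes were not called. Cobl, an actin nucleator 197.925 kb beyond Grb10, came nearest to the threshold among them, with 337 ± 28.2 maternal and 259 ± 17.2 paternal count equivalents (SD, n = 6; log2 0.38 ± 0.09 (SE), limma adjusted p = 0.084), and its maternal allele was higher in 6 of 6 libraries. Zpbp, on the other side of Grb10, had a log2 ratio of -0.17, and B3gnt2, before Zrsr1, had 0.52 (limma adjusted p = 0.693). The ratios of Cct4 next to Zrsr1 (0.067), of BC017158 and Mcmbp around Inpp5f (0.075 and 0.063), of Eef1b2 and Fastkd2 around Zdbf2 (0.046 and -0.14) and of Morf4l1 beyond Rasgrf1 (-0.027) were all close to 0. Mcmbp ends 0.016 kb from Inpp5f on the opposite strand and had a log2 ratio of 0.063 beside -1.27 at Inpp5f, although reads where convergent transcripts meet cannot be assigned to a strand.

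**Figure D3:**
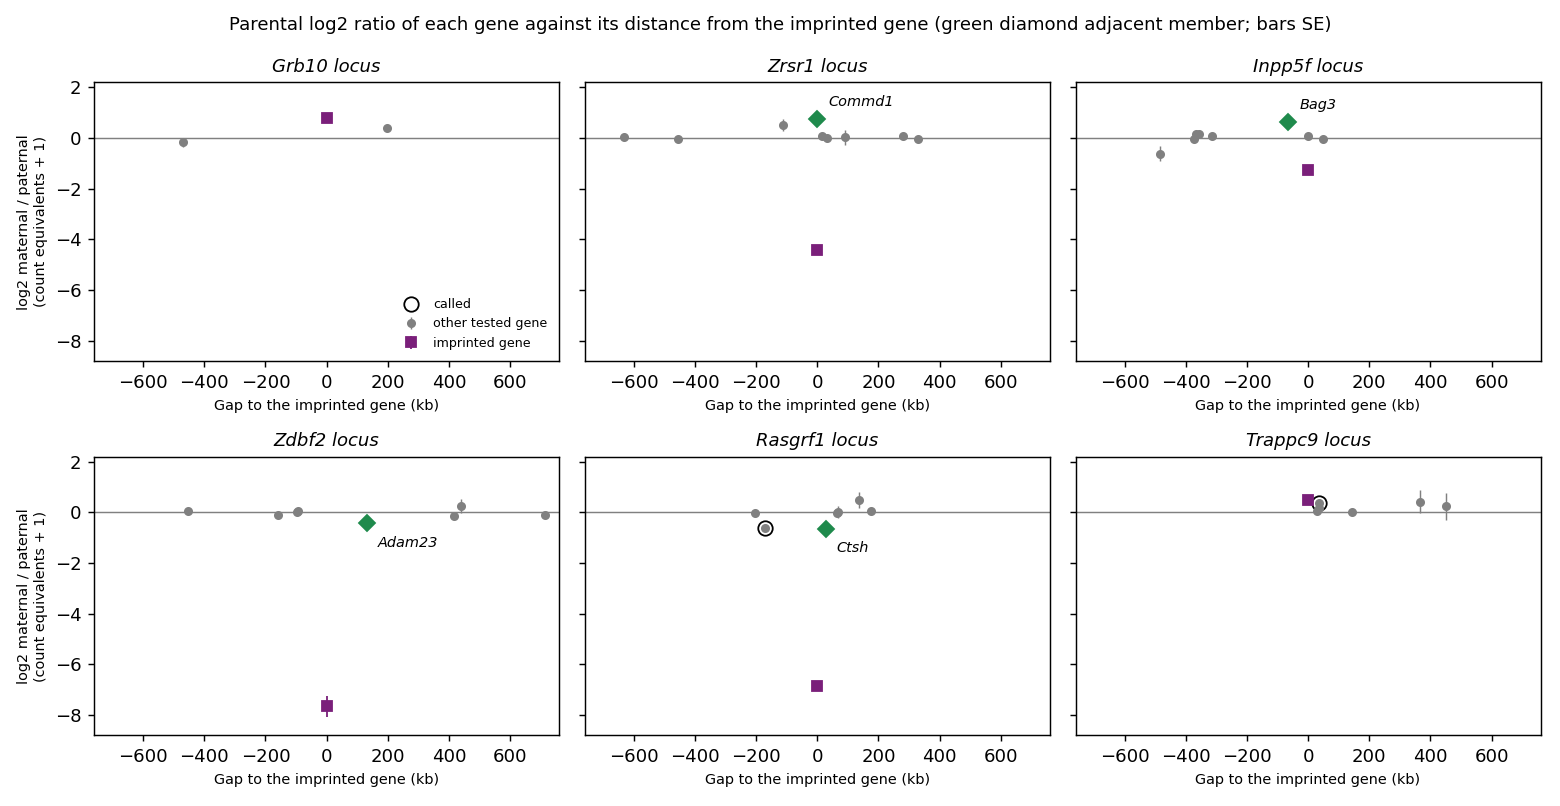
Log2 ratio of maternal to paternal count equivalents plus 1, with its SE, against the gap in kb from the imprinted gene of each locus (purple squares, imprinted gene; green diamonds, the adjacent gene; grey circles, other tested genes; black rings, called by limma). Among the 36 other genes only Eif2c2 near Trappc9 and Ankrd34c near Rasgrf1 are ringed, and the ratios of most others lie near 0.

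Strain differences were not used to choose the genes and were tested by limma over all genes. Between the F0 strains, 5 of the 10 genes were called, beside 33.8% of all 14452 genes tested. Grb10 was higher in F0 Cast/EiJ, and Commd1, Zdbf2, Ctsh and Trappc9 were lower. Grb10 had 1380, 1250 and 1430 count equivalents in F0 C57BL/6J and 1960, 1910 and 1700 in F0 Cast/EiJ. Means were 1353 ± 92.9 and 1857 ± 138 (SD, n = 3), a 1.37-fold difference (log2 0.46 ± 0.08 (SE), adjusted p = 0.0032). Trappc9 had 1660, 1800 and 1760 count equivalents and then 1130, 1290 and 1240, with means of 1740 ± 72.1 and 1220 ± 81.9 (SD, n = 3), lower in F0 Cast/EiJ by 1.43-fold (log2 -0.51 ± 0.07, adjusted p = 9.3e-04). Neither gene's libraries overlapped between the strains.

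Zdbf2 had 212, 252 and 272 count equivalents in F0 C57BL/6J and 158, 171 and 176 in F0 Cast/EiJ (log2 -0.53 ± 0.13 (SE), adjusted p = 0.011 by limma). Ctsh had 91.6 ± 7.4 and 59.4 ± 6.3 (SD, n = 3; log2 -0.62 ± 0.16 (SE), limma adjusted p = 0.017). Commd1 had 438 ± 75.6 and 326 ± 23.1 (SD, n = 3; log2 -0.41 ± 0.13 (SE), limma adjusted p = 0.037), and its call ended when any of 5 single libraries was left out. Of the 5 genes not called, Rasgrf1 had 1870 ± 114 and 1637 ± 20.8 (limma adjusted p = 0.060), and Inpp5f had 865 ± 58.3 and 937 ± 78.9 (limma adjusted p = 0.347). Zrsr1 had 782 ± 46.5 and 887 ± 37.2 (limma adjusted p = 0.0998), and its libraries did not overlap between the strains. Bag3, with 91.2 ± 8.1 and 115 ± 8.1, and Adam23, with 622 ± 54.4 and 537 ± 32.5, were likewise not called (limma adjusted p = 0.104 and 0.110, SD with n = 3). Leaving out F0 C57BL/6J replicate 1 or 2 or F0 Cast/EiJ replicate 2 took Ctsh just past the threshold (highest adjusted p = 0.057), and the deposited log expression did not call Zdbf2 (adjusted p = 0.115) or Commd1 (0.053). In the other direction, edgeR on unique hits, which called 37.1% of all genes, called Adam23 lower in F0 Cast/EiJ (log2 -0.35, adjusted p = 0.0052) and Rasgrf1 (log2 -0.22, adjusted p = 0.031), and DESeq2 on unique hits and limma on the log expression also called Adam23 (log2 -0.34 and -0.48, adjusted p = 0.0098 and 0.026).

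Between the strain alleles in F1, averaged over the parents, 2 genes were called, beside 47% of all genes. Ctsh was 1.85-fold lower on the Cast/EiJ allele (log2 -0.89 ± 0.13 (SE), adjusted p = 3.3e-05 by limma), and it was called for the paternal alleles alone (log2 -0.64 ± 0.20, adjusted p = 0.023) and the maternal alleles alone (log2 -1.13 ± 0.20, adjusted p = 3.7e-04). The paternal call ended without F1 B6xCast replicate 3, F1 CastxB6 replicate 1 or F1 CastxB6 replicate 3 (highest adjusted p = 0.083). Its F0 and F1 differences were not told apart (difference of log2 values 0.27 ± 0.24, adjusted p = 0.509). Trappc9 was lower on the Cast/EiJ allele by 1.11-fold (log2 -0.15 ± 0.04, limma adjusted p = 0.0090), a call that edgeR on unique hits did not make (log2 -0.11, adjusted p = 0.1002). That test, which called 42.7% of all genes, put the Cast/EiJ allele of Commd1 lower (log2 -0.52, adjusted p = 0.012) and that of Adam23 higher (log2 0.19, adjusted p = 0.011), whereas limma called neither (adjusted p = 0.286 and 0.064).

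The allelic difference also equals, for each gene, the amount by which the parental log2 ratio of each cross departs from the average of both crosses. For Trappc9 the maternal to paternal log2 ratio was 0.34 ± 0.06 in F1 B6xCast and 0.65 ± 0.07 in F1 CastxB6 (SD, n = 3 each), without overlap. Its maternal bias was thus present in both crosses and larger where the mother was C57BL/6J. For Grb10 the corresponding values, 0.82 ± 0.27 and 0.77 ± 0.11, did not differ beyond their spread (difference from the average 0.023 ± 0.06 (SE), limma adjusted p = 0.781).

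The F0 difference departed from the F1 allelic difference for 2 genes, Grb10 and Trappc9, beside 14% of all genes. In this design such a departure is termed a trans effect, but the authors left possibly imprinted genes out of that classification. F0 and F1 also differed in sequencing lanes and reference transcriptome. Unique hits per 100 count equivalents were 75.2 in F0 and 14.1 in F1 for Grb10, and 79.5 and 79.3 for Trappc9. The part of these in the departures was not tested. The F0 difference of Grb10 exceeded its allelic difference by 0.43 ± 0.11 on the log2 scale (SE, limma adjusted p = 0.013), since the allelic difference was 0.023. For Trappc9 the departure was -0.36 ± 0.08 (SE, limma adjusted p = 0.0067), with allelic and F0 differences of -0.15 and -0.51 in the same direction. The call for Trappc9 was lost on the deposited log expression (adjusted p = 0.126). For Adam23 the departure was -0.43 ± 0.17 and not called by limma (adjusted p = 0.104), but edgeR on unique hits, which called 14.1% of all genes, called it (log2 -0.55, adjusted p = 4.4e-04), as did DESeq2 on unique hits (log2 -0.49, adjusted p = 2.8e-04) and limma on the log expression (log2 -0.67, adjusted p = 0.0073). Its F0 and allelic differences, -0.21 and 0.22, had opposite signs.

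The strain difference could also be read on the alleles from a single parent, which for Zdbf2 and Rasgrf1, and nearly so for Zrsr1, means the expressed or the silent copy. On paternal alleles limma called 1 gene, Ctsh, beside 30.3% of all genes. On the nearly sole paternal allele of Zdbf2, the Cast/EiJ copies had 286, 308 and 301 count equivalents and the C57BL/6J copies 435, 553 and 524. The groups did not overlap and the difference (log2 -0.75, 1.68-fold) had the direction of F0. In the joint model, whose error also covers the maternal values near 0, it was not called (SE 0.62, limma adjusted p = 0.403). With paternal alleles fitted alone, a choice made after seeing the data, it was (SE 0.11, limma adjusted p = 0.0017), beside 26.6% of all genes. EdgeR on unique hits also called the paternal Cast/EiJ copy of Zdbf2 lower (log2 -0.76, adjusted p = 4.8e-04). Of the 16 alternatives run for this difference, 4 called it. The paternal alleles of Rasgrf1, Zrsr1 and Inpp5f differed by log2 0.056, -0.14 and 0.070. None was called in the joint model or with paternal alleles fitted alone.

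On maternal alleles limma called 4 genes, beside 29.8% of all genes. The Cast/EiJ copy was higher for Bag3 (131 ± 16.0 against 84.7 ± 8.2 count equivalents, SD, n = 3; log2 0.62 ± 0.20 (SE), adjusted p = 0.023) and for Adam23 (616 ± 23.1 against 462 ± 118; log2 0.45 ± 0.14, adjusted p = 0.022), and lower for Ctsh and Trappc9 (1693 ± 127 against 2063 ± 117; log2 -0.29 ± 0.07, adjusted p = 0.0040). With maternal alleles fitted alone, which called 25.8% of all genes, Adam23 was no longer called (adjusted p = 0.104). Without F1 CastxB6 replicate 1, where the maternal allele of Adam23 had 330 count equivalents, its difference was 0.22 (limma adjusted p = 0.129). The call for Bag3 was made in 11 settings, counting the main one, with 15 alternatives run. Among others, it ended by edgeR on unique hits (adjusted p = 0.057) and without F1 B6xCast replicate 2 or F1 CastxB6 replicate 3 (highest adjusted p = 0.099).

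**Figure D4:**
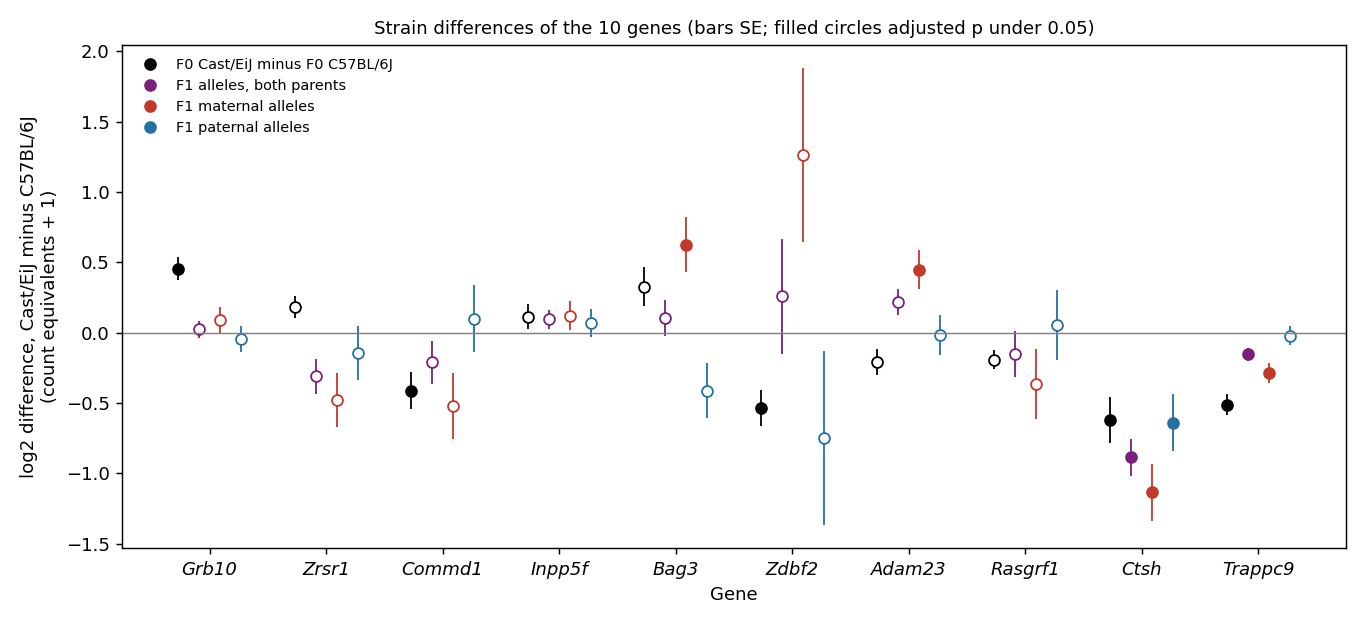
Log2 difference of Cast/EiJ minus C57BL/6J, on count equivalents plus 1, between F0 strains (black), F1 alleles averaged over parents (purple), maternal alleles (red) and paternal alleles (blue), with the SE and filled circles for limma adjusted p under 0.05. Ctsh is below 0 and filled in all 4 comparisons, Grb10 is filled only between the F0 strains, and the allelic estimates of Zdbf2 have wide error bars.

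The sum of both alleles was compared between the reciprocal crosses, since a strain difference on an allele expressed from a single parent would move the total of the gene. No member was called by limma, beside 0.0401% of all genes (6 of 14967), and edgeR and DESeq2 on unique hits called 0 as well. At an unadjusted p under 0.05 there were 3 members by limma (Bag3, Zdbf2 and Trappc9), 4 by edgeR and 2 by DESeq2. The total of Zdbf2 was 509 ± 53.4 count equivalents in F1 B6xCast and 299 ± 11.2 in F1 CastxB6 (SD, n = 3), without overlap (log2 -0.76 ± 0.09 (SE), limma adjusted p = 0.111). That of Bag3 was 210 ± 19.4 and 145 ± 16.7, also without overlap (log2 -0.53 ± 0.12, limma adjusted p = 0.917). Totals of Rasgrf1, 3392 ± 138 and 3530 ± 94.5, and of Inpp5f, 1794 ± 89.2 and 1811 ± 105, overlapped.

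Genes most like each member over the 18 values (6 F0 libraries and 12 F1 alleles) were found by Pearson's r of log2 count equivalents, as a description over values that share libraries. Zdbf2 was most like Snrpn (r = 0.978) and Nap1l5 (0.978), and Rasgrf1 like Sgce (0.992) and Usp29 (0.988). Zrsr1 was most like Rasgrf1 (0.988) and Sgce (0.984), and Inpp5f like Nap1l5 (0.957) and Usp29 (0.950). These are genes known to be expressed from the paternal allele. Since 12 of the 18 values are F1 alleles, this match largely follows from the parental contrast that chose the members. It adds no support of its own. Grb10 was most like H13 (0.903) and Mirg (0.802), Trappc9 like Aldh6a1 (0.866) and Fam129b (0.781). For the adjacent genes the nearest were Aff4 for Commd1 (0.854), Kdm1a for Bag3 (0.868), Slc11a2 for Adam23 (0.758) and 0610007C21Rik for Ctsh (0.920).

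Genes that set or keep imprints were taken as a list of 15, from DNA methyltransferases to KRAB zinc finger cofactors. Of the 12 that passed the filter, limma called 3 between the F0 strains, all higher in F0 Cast/EiJ, beside 33.8% of all genes, and the median log2 difference of the 12 was 0.16 against 0.032 over all genes. Trim28, the cofactor that holds methylation at imprinted control regions, had 1970.0 ± 118 and 2720.0 ± 139 count equivalents in F0 C57BL/6J and F0 Cast/EiJ (SD, n = 3; log2 0.47 ± 0.07 (SE), limma adjusted p = 0.0014). Smchd1, a chromatin protein of silenced clusters, had 1190.0 ± 115 and 1560.0 ± 45.8 (log2 0.39 ± 0.08, limma adjusted p = 0.0065). Ctcf, the insulator protein, had 1647 ± 77.7 and 1900.0 ± 40.0 (log2 0.21 ± 0.07, limma adjusted p = 0.038). Dnmt1, the maintenance methyltransferase, had 1367 ± 110 and 1467 ± 104 (limma adjusted p = 0.386). Dnmt3a, a de novo methyltransferase, was the only one of the 12 with a negative F0 difference (log2 -0.23, limma adjusted p = 0.079). Between the F1 alleles, limma called 3 of 12, beside 47% of all genes, with Dnmt3a lower on the Cast/EiJ allele (log2 -0.18, adjusted p = 0.0048) and Dnmt3b (log2 0.93, adjusted p = 0.0021) and Ctcf (log2 0.16, adjusted p = 0.011) higher.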

How the data were processed

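Retinal mRNA of 12 libraries (3 pools per class) was sequenced as 101 bp read pairs, on 1 lane for F0 and 2 for F1. The deposited tables were made by the authors, who trimmed reads with Trim Galore 0.2.6, aligned them with Bowtie 0.12.9 to strain or hybrid transcriptomes (Ensembl, NCBI37) and used MMSEQ for the estimates. The signal used here, count equivalents, was normalized by the authors and is not integer. Unique hits are a count of read pairs, deposited without normalization. The natural log of expression was also deposited by the authors and served for an alternative. The posterior probabilities and Bayes factors of the authors' own comparisons and 36 other columns were not used.

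Members and gene lists were chosen with earlier results of these data known. Limma 3.58.1 (R 4.3.3) was run with trend on log2(count equivalents + 1), so fold changes of low genes are understated. F0 and total comparisons covered autosomal genes that reached 10 count equivalents in 3 or more libraries. 1 joint model over F0 and both F1 alleles, with the library as a block (consensus correlation 0.135), covered autosomal genes polymorphic between the strains and averaging 10 or more allele-specific hits. P-values were adjusted by Benjamini-Hochberg over all genes tested, with calls under 0.05. All 10 members passed the filters of each comparison, and the fits were tested on simulated data. Alternatives used edgeR 4.0.16 and DESeq2 1.42.0 on unique hits, without the library block. Named genes were the 10 members, tested genes within 500 kb that were called or nearest to an imprinted gene, called genes of the imprint list, and for each member the 2 most similar genes among those with at least 100 hits. Dnmt1, Dnmt3a, Dnmt3b and Chrac1 were added after their values were seen. Promoter sequences are from RefSeq. Nothing states that pools of a class came from separate litters, so p-values measure the spread between these pools. Depth per library is given by unique hits, 8158534 to 12363291. Shares were computed with scipy 1.17.1 and plots with matplotlib 3.10.9. Some listed markers are not reported here.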

Additional observations from a re-analysis of the deposited data

Results flagged for a closer look

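For Zdbf2, 1 of the 6 F1 libraries stood far from the others. In F1 B6xCast replicate 1 the log2 ratio of maternal to paternal count equivalents was -4.79, against -8.76 to -7.75 in the other 5, and the maternal share of unique hits was 0.943%, from 1 hit, against 0 in the other 5. Such a test flags about 1 group in 20 by chance, and 20 groups of 6 values were tested here.

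The parental log2 ratio differed between the reciprocal crosses for Ctsh, by -0.89 to either side of the average over the crosses, and for Trappc9, by -0.15 (limma adjusted p = 3.3e-05 and 0.0090). The strain difference in F0 differed from that of the F1 alleles by 0.43 on the log2 scale for Grb10 and by -0.36 for Trappc9 (limma adjusted p = 0.013 and 0.0067).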

How the results depend on the processing

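Directions of the parental ratios were kept under every alternative run except for Commd1, whose log2 ratio was -0.084 by unique hits against 0.76. Member counts moved as follows. F0 calls went from 5 to 3 with no filter on low values, and to 7 by edgeR and 6 by DESeq2 on unique hits. They ranged from 3 to 5 with single libraries left out (3 without F0 C57BL/6J replicate 2 or without F0 Cast/EiJ replicate 2). Allelic calls rose from 2 to 4 with a mean of at least 50 and ranged from 2 to 4 with single libraries left out, and calls of an F0 to F1 departure ranged likewise from 2 to 4, in each case highest without F1 CastxB6 replicate 2. Paternal calls went from 1 to 0 with no filter, to 2 by edgeR or DESeq2 on unique hits and with paternal alleles fitted alone, and ranged from 0 to 2 with single libraries left out (0 without F1 B6xCast replicate 3 or F1 CastxB6 replicate 3, 2 without F1 B6xCast replicate 1). Maternal calls went from 4 to 2 with no filter or on the deposited log expression, and ranged from 3 to 6. For the totals, 1 gene, Zdbf2, was called without F1 B6xCast replicate 1 (limma adjusted p = 0.018).

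The allelic difference of Zdbf2, 0.26, became -0.046 with a pseudocount of 5 and ranged from -0.39 to 0.60 with single libraries left out, lowest (limma adjusted p = 0.0068) without F1 B6xCast replicate 1, the library with its single maternal hit. That of Rasgrf1, -0.15, ranged from -0.36 to 0.021 with single libraries left out, highest without F1 B6xCast replicate 2. On the deposited log expression it was -0.38, and 1 of the settings run called it. The cause of the other changes was not tested. Over all genes, F0 calls fell from 4887 to 3161 and calls on totals rose from 6 to 24 with no filter.

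Same-numbered libraries did not deviate together in F1 (r of -0.10, -0.12 and -0.056). In F0 their r was 0.33, 0.030 and 0.14, against -0.27 to 0.17 between different numbers. The F0 libraries numbered 1 thus deviated together to a degree. The main fits did not take the numbers as pairs, and the F0 calls depend on this choice. With a replicate block, 7 members were called in F0, 2 between the alleles, 2 for the F0 to F1 departure, 1 on paternal alleles, 4 on maternal alleles and 0 for the totals, and all-gene F0 calls were 6376. Depth limits Commd1, Bag3, Zdbf2 and Ctsh, with at most 134 allele-specific hits per library.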
